A study of Rattus norvegicus with 12 samples.

Results

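The loci described here lie at the rat genome positions of interferon-induced genes: those of Ifi27, Isg15, the Mx family and, at 2 neighbouring places, the Slfn (Schlafen) family. They were chosen by position among the loci whose hippocampal RNA was lower with corticosterone, so their decreases are a description of the choice and not a test of it. All entries at these 5 loci were taken, whether tested or not, which gave 6 assembled genes out of 58341 in the table. RNA came from 12 male Sprague-Dawley rats of 8 weeks, all adrenalectomized, meaning that every animal of either group lacked its own adrenal corticosterone. The treated group of 6 received corticosterone at 300 µg/kg and the control group of 6 received vehicle, and whole hippocampi were collected 1 h later. Each group enters the table as 1 pooled value in FPKM, a fragment count scaled for transcript length and sequencing depth. Values of single animals, their spread and the read depth are not known here, so no SD, SE or counting interval is given.

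The table names no genes: 0 of its 58341 entries have a symbol. The gene names used below come from the known placement of these genes in the rn6 assembly, to which the table's scaffold names belong. They were not checked against an rn6 annotation, which was not used here, and "the Isg15 locus" below means the assembled locus at that position. In RefSeq's order of coding genes on another rat assembly, GRCr8, Ifi27 lies between Ddx24 and Ifi27l2b, and Isg15 lies between Agrn and Perm1. Mx1 and Mx2 are separated there by Fam3b, and Slfn2, Slfn1 and Slfn4 follow each other. For the Mx and Slfn loci the family is given and not the member, and reads of near-identical family copies may have been divided between them, so those values are less certain. The defining markers of hippocampal cell types, and the other genes of the interferon pathway, could not be looked up for the same lack of symbols.

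Interferons are secreted by cells that sense a virus or other danger, and they act through cell surface receptors to switch on a common set of genes. Many promoters of these genes hold a short DNA element, the interferon-stimulated response element. In brain, microglia, astrocytes, endothelial cells and neurons can all show this response, and a low tonic activity is present without infection. Glucocorticoids such as corticosterone act through nuclear receptors and are known for restraining inflammatory transcription. Among the genes treated here, Ifi27 encodes a small hydrophobic protein of mitochondrial membranes and Isg15 a ubiquitin-like protein that is attached to other proteins. Mx genes encode dynamin-like GTPases that block virus replication, and Slfn genes encode proteins of which some act on transfer RNA and on the growth of immune cells.

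The sequence just before the start of such a gene is where its interferon response is usually encoded, so windows from RefSeq are shown, 250 bases up to the annotated start, 5′ to 3′ along the gene. Of Ifi27, Isg15, Mx1 and Mx2, 2 matched a window, Ifi27 and Mx1, while Isg15 and Mx2 did not. Which member lies at the Mx locus is not settled, so the Mx1 window may not belong to it. Slfn2 and Slfn4 are shown as examples of the 6 Slfn genes with a window, since the member at each Slfn locus is not settled. They are on GRCr8, not on the build of the expression table: Ifi27 at chr6:128355062-128355311 (+), Mx1 at chr11:50294607-50294856 (-), Slfn2 at chr10:68450611-68450860 (+) and Slfn4 at chr10:68491970-68492219 (+). Capitals mark matches to any of 3 motifs: GAAANNGAAA, the core of the interferon-stimulated response element, TTCNNNGAA, the gamma-activated site, and AGAACA, a half-site of the glucocorticoid receptor.
Ifi27: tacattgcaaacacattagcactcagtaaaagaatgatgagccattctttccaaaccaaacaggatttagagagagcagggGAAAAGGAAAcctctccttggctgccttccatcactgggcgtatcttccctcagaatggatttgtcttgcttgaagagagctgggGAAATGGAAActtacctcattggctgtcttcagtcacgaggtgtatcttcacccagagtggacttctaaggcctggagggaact
Mx1: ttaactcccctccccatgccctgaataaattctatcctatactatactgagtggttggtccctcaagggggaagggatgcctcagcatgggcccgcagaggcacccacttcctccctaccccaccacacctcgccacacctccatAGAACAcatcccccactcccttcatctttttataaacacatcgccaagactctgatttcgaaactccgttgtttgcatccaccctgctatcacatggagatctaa
Slfn2: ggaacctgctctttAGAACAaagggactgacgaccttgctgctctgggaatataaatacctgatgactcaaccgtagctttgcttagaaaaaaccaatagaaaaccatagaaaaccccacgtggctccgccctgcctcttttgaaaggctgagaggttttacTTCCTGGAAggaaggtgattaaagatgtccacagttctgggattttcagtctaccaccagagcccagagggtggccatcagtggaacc
Slfn4: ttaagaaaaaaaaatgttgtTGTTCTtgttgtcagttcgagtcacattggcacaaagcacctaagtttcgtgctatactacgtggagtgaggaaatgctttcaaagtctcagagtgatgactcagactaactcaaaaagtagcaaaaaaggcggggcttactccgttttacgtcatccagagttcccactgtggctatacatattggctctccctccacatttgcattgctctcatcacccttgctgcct

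The Ifi27 window held the core GAAANNGAAA at 2 places, as GAAAAGGAAA from 169 to 160 bases before the start and as GAAATGGAAA from 84 to 75 bases before it. Of 33469 rat promoter windows of this length searched on both strands, 1140 (3.41%) held this core at least once and 69 (0.206%) held it 2 or more times. The Slfn2 window held a TTCNNNGAA, 88 to 80 bases before the start, a motif found in 7.67% of all windows. AGAACA, on either strand, was found in the windows of Mx1, Slfn2 and Slfn4 and in 17.5% of all windows. Of the 6 Slfn genes, which have 9 partly overlapping windows, 0 held GAAANNGAAA, 2 held TTCNNNGAA and 3 held AGAACA in at least 1 window. No match overlapped another in the 4 windows shown. Letters alone do not show that a factor binds there.

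The levels at the 5 loci spanned a wide range, and all 6 assembled genes had a lower value with corticosterone than with vehicle. The locus at the Ifi27 position on chromosome 6, 127327603 to 127334442, assembled gene XLOC_045100, was by far the most abundant, with 79.0 FPKM with vehicle and 51.9 FPKM with corticosterone. Only 0.803% of the 42839 tested assembled genes had a vehicle level as high. The Mx locus on chromosome 11, 38035473 to 38059798, XLOC_009646, had 7.56 FPKM with vehicle and 4.06 FPKM with corticosterone. At the Isg15 position on chromosome 5, 173624368 to 173626375, XLOC_041537 had 2.68 FPKM with vehicle and 1.16 FPKM with corticosterone.

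The Slfn loci of chromosome 10 differed in level. At the first, 70370304 to 70376331, XLOC_006638 had 3.46 FPKM with vehicle and 2.02 FPKM with corticosterone, and a further assembled gene with the same ends, XLOC_008904, had 0.79 and 0.44 FPKM. At the second, 70412315 to 70434704, XLOC_006639 had 0.81 FPKM with vehicle and 0.46 FPKM with corticosterone. The order of the 6 levels was the same in the pooled values of either group: Ifi27, Mx, the first Slfn entry, Isg15, the second Slfn locus and the further entry of the first. The last 2 lay 0.025 FPKM apart with vehicle and 0.023 FPKM apart with corticosterone. Without values of single animals no neighbouring levels can be said to differ beyond their spread. The Ifi27 locus exceeded the Mx locus 10.5-fold with vehicle and 12.8-fold with corticosterone.

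**Figure D1:**
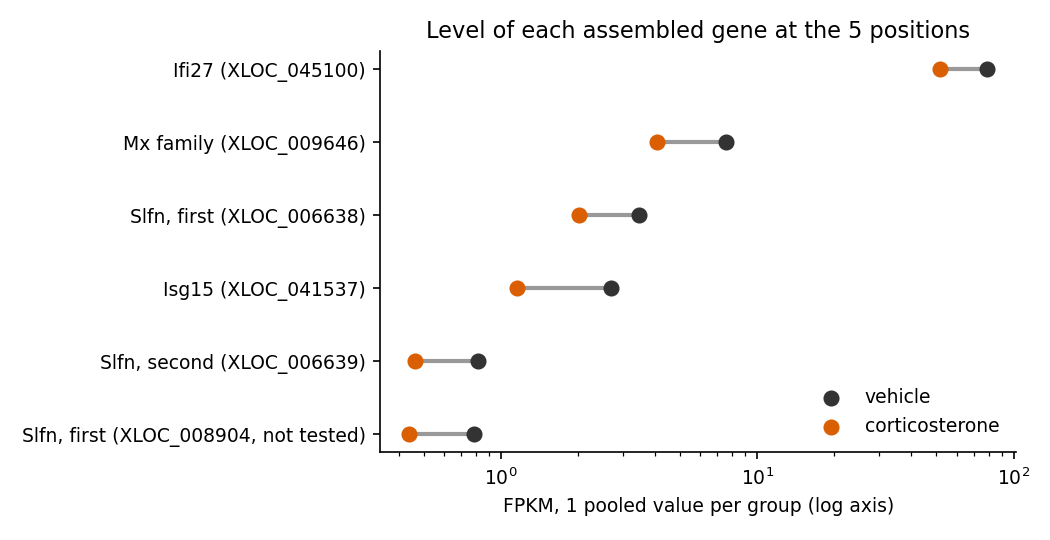
Level in FPKM (log axis) of each of the 6 assembled genes at the 5 positions, 1 pooled value per group; black points are vehicle, orange points corticosterone, and a grey line joins the pair. Each orange point lies to the left of its black point, from 79.0 against 51.9 FPKM at the top to 0.79 against 0.44 FPKM at the bottom.

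Relative to their own vehicle level, the decreases lay between 1.52-fold and 2.31-fold. The Isg15 locus had the largest, 2.31-fold (log2 change -1.21), with 43.4% of the vehicle level present after corticosterone. It was followed by the Mx locus with 1.86-fold (log2 change -0.90). The Slfn entries were close to each other: 1.71-fold and 1.80-fold for the entries of the first locus and 1.76-fold at the second. The abundant Ifi27 locus had the smallest relative decrease, 1.52-fold (log2 change -0.61), but in FPKM its loss of 27.1 made up 79.1% of the 34.3 FPKM that the 6 entries lost together. With 1 FPKM added to every value, the Ifi27 locus had a log2 change of -0.60. Both Slfn loci then had smaller decreases, at -0.56 and -0.31, so the order by fold depends on their low levels. Of all tested assembled genes, 12 had a decrease of 27.1 FPKM or more, and the Ifi27 locus is the only called one among these 12. In bulk tissue, fewer cells that express a gene and less RNA per cell cannot be told apart.

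In the authors' deposited table, 5 of the 6 entries were called lower (q = 0.0165 for each) and the sixth, XLOC_008904, was not tested. Over all tested assembled genes, 0.0747% were called lower at a q of 0.05 or less, 32 of 42839. The rule drew on these very calls, so the contrast with that share reflects how the loci were picked. The 5 loci make up 15.6% of the 32 lower calls. Each of the 5 shared the smallest p-value of the authors' deposited table, 5e-05, with 21 of the other lower calls, so they cannot be ranked by p. The size of the test statistic in the authors' deposited table did vary: it was 3.40 at the Mx locus, 3.35 at the Ifi27 locus, 2.30 at the Isg15 locus, and 1.70 and 1.68 at the Slfn loci.

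Among the 31 lower calls with both values above 0, the Isg15 locus ranked 2 by fold, the Mx locus 4, the second Slfn locus 6, the first Slfn locus 9 and the Ifi27 locus 15. The median decrease was 1.76-fold for the 5 called entries here and 1.46-fold for the other 26, which ranged from 1.25-fold to 2.68-fold. Some of the 26 lie close together on chromosome 12 or chromosome 3. Ranks and medians count each as 1 entry, and whether they are separate genes was not tested. All 5 had a decrease of at least 1.5-fold, as did 16 of the 32 lower calls, a count that includes these 5 and the call with a value of 0. The Ifi27 locus was also the only lower call above 50 FPKM with vehicle, the highest of the others being 25.4 FPKM.

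**Figure D2:**
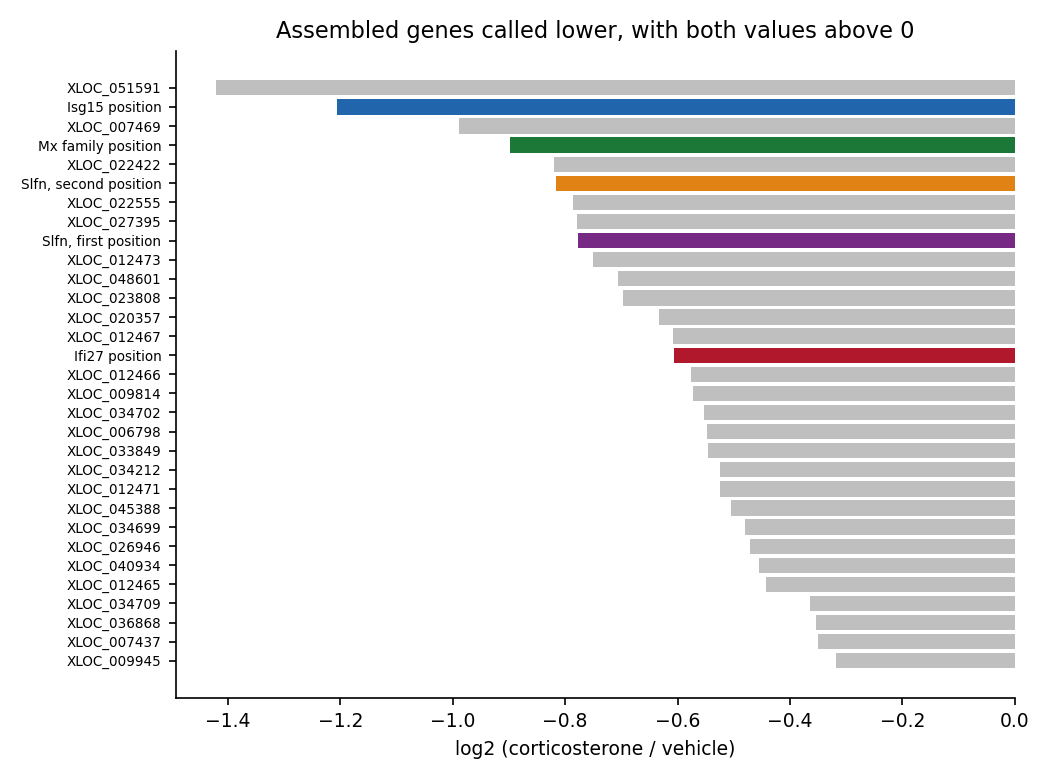
Log2 ratio of corticosterone over vehicle for the 31 assembled genes called lower with both values above 0, ordered by size; coloured bars are the 5 loci described here and grey bars the others. The coloured bars run from -1.21 (Isg15) to -0.61 (Ifi27) and are spread over the upper part of the list.

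Each decrease was set beside the entries of similar level. Of 1050 tested assembled genes with a mean level within 2-fold of the Ifi27 locus, 4 (0.381%, itself included) had a log2 change as low as -0.61. The same count was 33 of 12486 (0.264%) around the Mx locus and 57 of 23867 (0.239%) around the Isg15 locus. It was 197 of 20652 (0.954%) around the first Slfn locus and 282 of 11663 (2.42%) around the second. The median log2 change of all tested entries was 0.007, and 48.2% of them had a lower value with corticosterone. These shares describe the table and, with loci chosen for their decrease, support nothing by themselves.

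**Figure D3:**
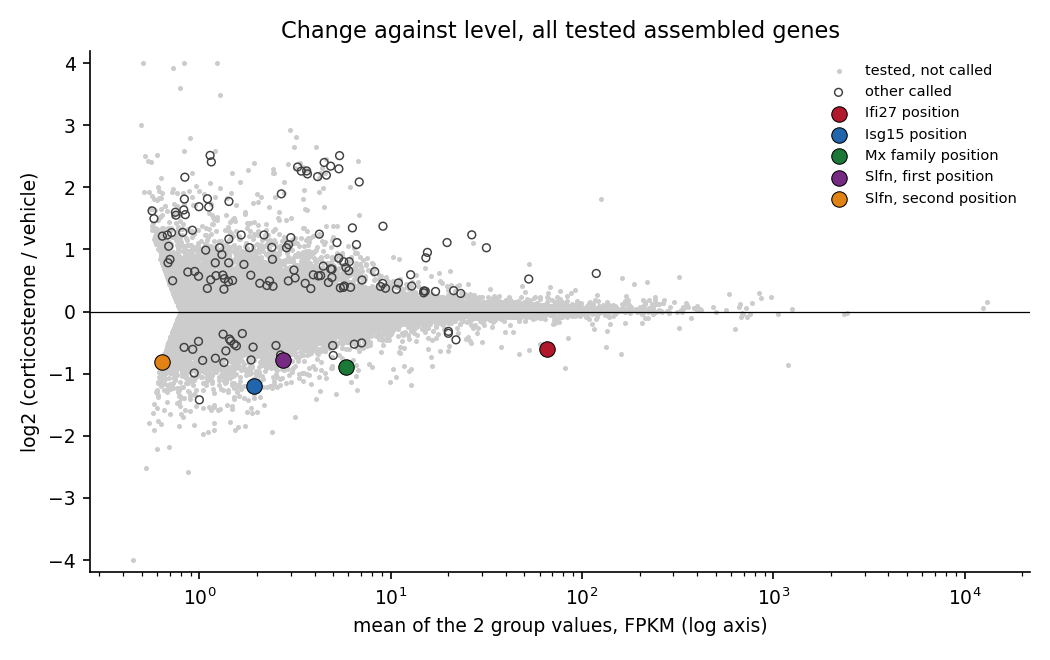
Log2 ratio of corticosterone over vehicle against the mean of the 2 group values (FPKM, log axis) for all tested assembled genes with both values above 0; grey dots were not called (those beyond 4 in either direction are drawn at 4), open circles are other calls and filled circles the 5 loci. The Ifi27 circle at -0.61 lies below most of the narrow cloud near 65.4 FPKM. It is not alone there: XLOC_000920, tested and not called, lies at -0.62 near 53.1 FPKM. The second Slfn circle at -0.82 sits inside the wide cloud near 0.64 FPKM.

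Entries next to the 5 loci did not take part in the choice. Within 100 kb there were 15 other tested assembled genes, of which 7 (46.7%) had a lower value with corticosterone, beside 48.2% of all tested entries. None of the 15 was called (0 of 15 by q in the authors' deposited table, and 0 with an unadjusted p of 0.05 or less, the smallest p being 0.2242). Over all tested entries, 148 of 42839 were called in either direction, so 0 of 15 does not set the neighbours apart. The log2 changes of the 15 lay between -0.29 and 0.32, with a median of 0.05. The neighbours share the libraries and may share reads with the loci, and whether the neighbours and the loci differ was not tested.

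On chromosome 6, the entry before the Ifi27 locus, XLOC_045471, ends 8.18 kb from it and had 25.2 FPKM with vehicle and 26.5 FPKM with corticosterone. The entry after it, XLOC_045472, begins 1.72 kb away and had 3.07 and 2.51 FPKM, a log2 change of -0.29 that was not called (p = 0.2242 in the authors' deposited table). In the GRCr8 order the gene after Ifi27 is its relative Ifi27l2b, but whether this entry is that gene was not tested. On chromosome 5, a short entry that ends 0.423 kb before the Isg15 locus, XLOC_044776, had 0.98 FPKM with vehicle and 0.84 FPKM with corticosterone. The larger XLOC_041536, which ends 1.52 kb before it, had 19.0 and 20.0 FPKM. On the other side, XLOC_041043 had 5.74 and 6.13 FPKM. Within 10 kb of the Ifi27 and Isg15 loci, 2 of the 4 tested neighbours had a lower value, neither of them called.

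On chromosome 10 the Slfn loci lie 35984 bases apart with no other entry between them. The 3 tested entries before them had slightly lower values with corticosterone, with log2 changes from -0.11 to -0.05. The nearest of these, XLOC_007231, had 1.31 FPKM with vehicle and 1.22 FPKM with corticosterone, and 2 untested entries of its locus had log2 changes of -0.35 and -0.69 at levels of at most 0.62 FPKM. In contrast, the Mx locus had no tested neighbour within 100 kb. An untested entry 5.86 kb after it, XLOC_010655, had 0.43 FPKM with vehicle and 0.15 FPKM with corticosterone. The nearest locus before it lies 121.0 kb away at 37798146 to 37914972 and holds 3 tested entries. XLOC_009857 among them had 5.30 FPKM with vehicle and 3.68 FPKM with corticosterone, 1.44-fold lower, where the authors' deposited table gives an unadjusted p of 0.04115 but q = 0.999. The other entries of that locus, XLOC_009645 and XLOC_010654, had log2 changes of -0.01 each. This locus was singled out after its values were seen.

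**Figure D4:**
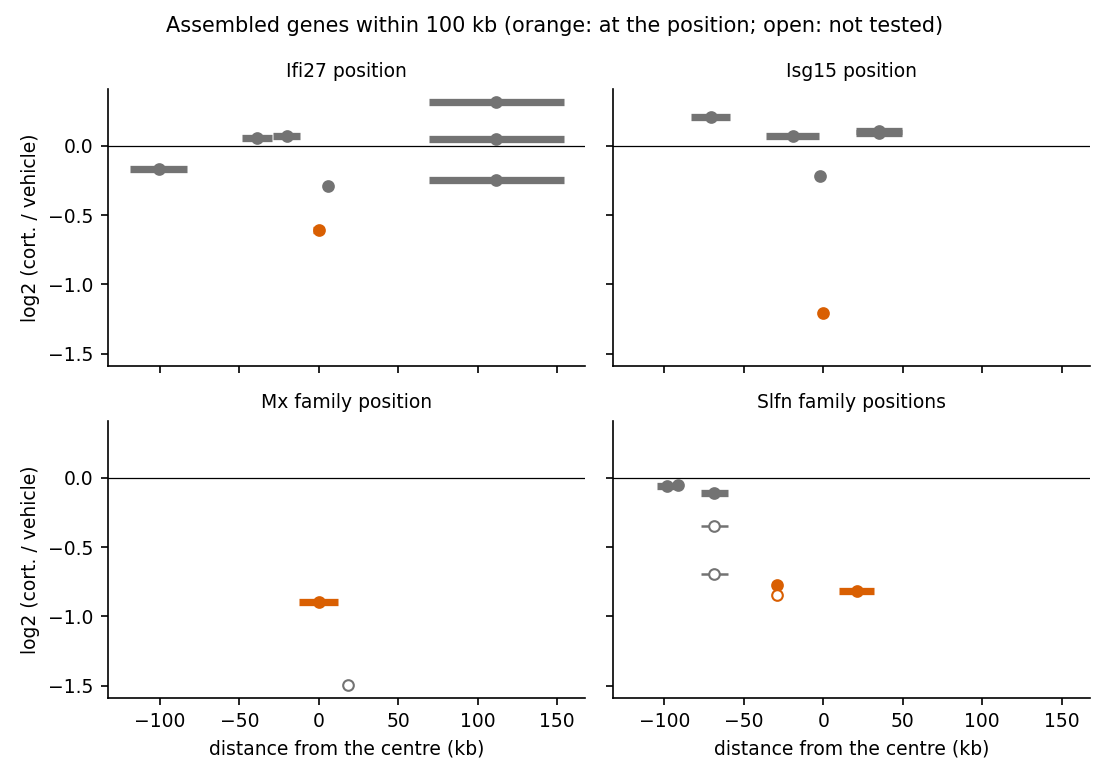
Log2 ratio of corticosterone over vehicle for the assembled genes within 100 kb of each position, against distance in kb from the centre of the position; bars give the extent of each entry, orange marks the loci described here, grey the neighbours, and open circles untested entries. Tested neighbours lie between -0.29 and 0.32, while the orange entries lie between -1.21 and -0.61.

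For each locus, the lower call elsewhere with the most similar pair of levels was sought over the 24 other loci whose most abundant entry was called lower with both values above 0, by the distance between the log2 levels over the 2 groups. For the first Slfn locus this was XLOC_023808 on chromosome 18, with 3.29 FPKM with vehicle and 2.03 FPKM with corticosterone, at a distance of 0.0724. For the Mx locus it was XLOC_048601 on chromosome 7, with 6.21 and 3.81 FPKM, at 0.297. For the Isg15 locus it was XLOC_027395 on chromosome 2, with 2.36 and 1.37 FPKM, at 0.304. For the second Slfn locus it was XLOC_012466 on chromosome 12, with 1.00 and 0.67 FPKM, at 0.606. The Ifi27 locus had no near counterpart among these 24: the closest, XLOC_040934 on chromosome 5, had 25.4 and 18.5 FPKM, at 2.21. That distance follows from level, since no other lower call exceeded 25.4 FPKM with vehicle. Entries that were not called were not searched, such as XLOC_000920, with a mean of 53.1 FPKM and a log2 change of -0.62. A likeness over 2 values is a weak one.

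The authors also deposited a list of 122 transcripts that its track line calls differentially expressed. Transcripts with the same ends as the Ifi27 locus (TCONS_00082588) and the Isg15 locus (TCONS_00077838) are in it, both with the score 499. The Mx and Slfn loci, although called at the level of assembled genes, have no transcript in the list. Of the 27 other lower calls, 15 sit at a locus in the list. The list comes from the same libraries as the table and adds no independent measurement.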

How the data were processed

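Hippocampal RNA-seq of 12 rats was processed by the authors. The submitters' processing notes name Cuffdiff 2.2.1.3, Cufflinks 2.2.1.0, TopHat 0.9 and Bowtie2 0.6, with no order, and the build rn5, whereas scaffold names in the table are those of rn6. Coordinates are printed as deposited. The scaling, dispersion and strand settings are not stated in the labels or headers.

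The authors' gene table has 1 FPKM value per group, per the file headers. The log2 ratio they deposited is of Control to Cort and matched the values within 0.001 for 58263 of 58271 entries with values above 0 in each group, the other 8 being marked as failed. Folds and log2 changes here were computed from the FPKM values as corticosterone over vehicle, with no pseudocount. The authors' p-values, q-values and test statistic (a score) were used as deposited, and the transcript list's score is given as deposited. No test across animals could be made. Entries were called at a q of 0.05 or less. Groups follow the sample titles, where the treatment is corticosterone (the source names have cortisone).

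The members and lists were chosen with earlier results of these data known. Named entries are all members, the nearest tested loci within 100 kb and the most similar lower call for each locus, plus any listed interferon gene or cell type marker, of which 0 matched for want of symbols. XLOC_009857, the entries in its locus, XLOC_000920, the untested neighbours and the promoter motifs were chosen after values were seen. Promoter windows are from RefSeq (GRCr8). Python 3.11.15, pandas 2.3.3 and NumPy 2.4.6 were used, and the calculations were tested on simulated data.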

Additional observations from a re-analysis of the deposited data

How the results depend on the processing

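The 5 calls were also 5 at a q of 0.10 or less, with loci counted once and with a change of at least 1.5 times. None of these settings could have lowered the count. Each q was 0.0165, each call has its own locus and the smallest decrease was 1.52-fold. Adjustment over entries with a mean of at least 1 FPKM left 4, because the second Slfn locus falls below that mean. A q of 0.01 or less left 0 calls here and 0 in the whole table, since the smallest q is 0.0165. An unadjusted p of 0.05 was passed by 5 of 5, which their p of 5e-05 in the authors' deposited table had already fixed. A pseudocount of 1, which compresses low values, moved the median log2 change from -0.83 to -0.58, that of the Isg15 locus from -1.21 to -0.77, the Mx locus from -0.90 to -0.76, the first Slfn locus from -0.78 to -0.56 and the second from -0.82 to -0.31. A pseudocount of 0.1 moved the second Slfn locus to -0.70. The Ifi27 locus moved by less than 0.1 under every alternative run. Leaving out each locus in turn, recentring by the median of tested entries, summing over a locus, other distances for neighbours and other overlaps with the transcript list changed no log2 value by over 0.1 and no count or share by over 1.5 times. Pseudocounts and recentring by 0.007 cannot turn these directions, so they say nothing about the stability of the direction. The order by size did change with a pseudocount of 1. The Ifi27 locus, at -0.60, then no longer had the smallest decrease, since both Slfn loci had smaller ones. No paired analysis was possible because the table has no values of single animals, and none could be left out.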
